A study of Drosophila melanogaster with 15 samples.

Results

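The genes described here encode the subunits of the proteasome, the protease that degrades proteins marked with ubiquitin. A gene was taken when its symbol started with Prosalpha or Prosbeta, or with Rpn or Rpt followed by a digit. This gave 40 genes among 16322 probesets, each gene with a single probeset. Of these, 26 are the standard subunits (12 of the core particle and 14 of the regulatory particle) and 14 are copies, whose symbol adds a T or an R to the subunit number (10 of the core particle and 4 of the regulatory particle). RefSeq lists 48 fly genes with such symbols. The other 8 were not analysed as members. Prosalpha1 and its copy Prosalpha1R share 2 probesets, and Prosbeta1, Rpt1, Rpt6, Rpn9, Rpn10 and Rpt6R had no probeset in the annotation used here.

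RNA came from whole fly heads of 3 genotypes, with 5 arrays each. The elav/v105975 flies carried the neuronal driver elav-Gal4 together with v105975, a UAS transgene for a hairpin RNA against the chloride intracellular channel gene Clic. The elav/+ flies had only the driver and the v105975/+ flies had only the undriven hairpin. Gal4 is therefore present in elav/v105975 and elav/+, the hairpin transgene in elav/v105975 and v105975/+, and the driver acts in neurons while the RNA comes from every cell type of the head. The sources used here give neither the age nor the sex of the flies, and do not state if replicate arrays stem from independent crosses or collections, so every p-value reflects only the scatter among these arrays, which may be technical.

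The core particle is a barrel of stacked rings. The alpha subunits form the outer rings and gate the entrance, and the beta subunits form the inner rings, of which beta1, beta2 and beta5 carry the proteolytic sites. The regulatory particle caps the barrel. Its Rpt subunits are ATPases that unfold the substrate and thread it into the core, and its Rpn subunits bind the ubiquitin chain, remove it or hold the cap together. Neurons depend on this machinery for the turnover of damaged and synaptic proteins, and in Drosophila many subunits have a second gene that is used mainly in the male germ line.

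All values are log2 intensities after RMA, a procedure that subtracts background, equalizes the distributions of the arrays and combines the probes into 1 value per probeset. A log2 fold change of 1 is a doubling. An RMA value depends on the probes as well as on the transcript, so levels are compared between genotypes and not between genes. Array medians were 6.16 to 6.24. Clic itself was at 59.0% of the elav/+ level in elav/v105975 and at 85.9% in v105975/+. Differences between genotypes were tested with limma over all 16322 probesets, with Benjamini-Hochberg adjustment and a threshold of 0.05. The comparisons of elav/v105975 and of v105975/+ with elav/+ share the 5 elav/+ arrays and are therefore not independent of each other.

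No subunit gene of either particle passed the test in the knockdown flies. In elav/v105975 against elav/+, 0 of 40 passed, while 9.43% of all probesets did. Without adjustment 3 of 40 had a p under 0.05 (23.5% of all probesets), which were Prosalpha3 and Prosalpha3T with lower values and Prosbeta2R1 with higher values. In v105975/+ against elav/+, 1 of 40 passed, the copy Prosalpha3T, which was lower (3.47% of all probesets passed as lower and 6.10% in either direction). Here 6 of 40 had an unadjusted p under 0.05 (18.5% of all probesets), Prosalpha3T, Prosalpha7 and Rpn7 with lower values and Prosalpha4T1, Prosbeta5R2 and Rpt4R with higher ones. Between elav/v105975 and v105975/+, 0 of 40 passed (0.417% of all probesets) and 3 of 40 had an unadjusted p under 0.05 (9.07% of all probesets), Prosalpha3T and Rpn7 with higher and Prosbeta5R2 with lower values. The arrays of elav/v105975 and elav/+ did not separate for any of the 40 genes (10.0% of all probesets separated), those of v105975/+ and elav/+ separated for Prosalpha3T alone (7.19% of all probesets), and those of elav/v105975 and v105975/+ for none (2.30% of all probesets).

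**Figure D1:**
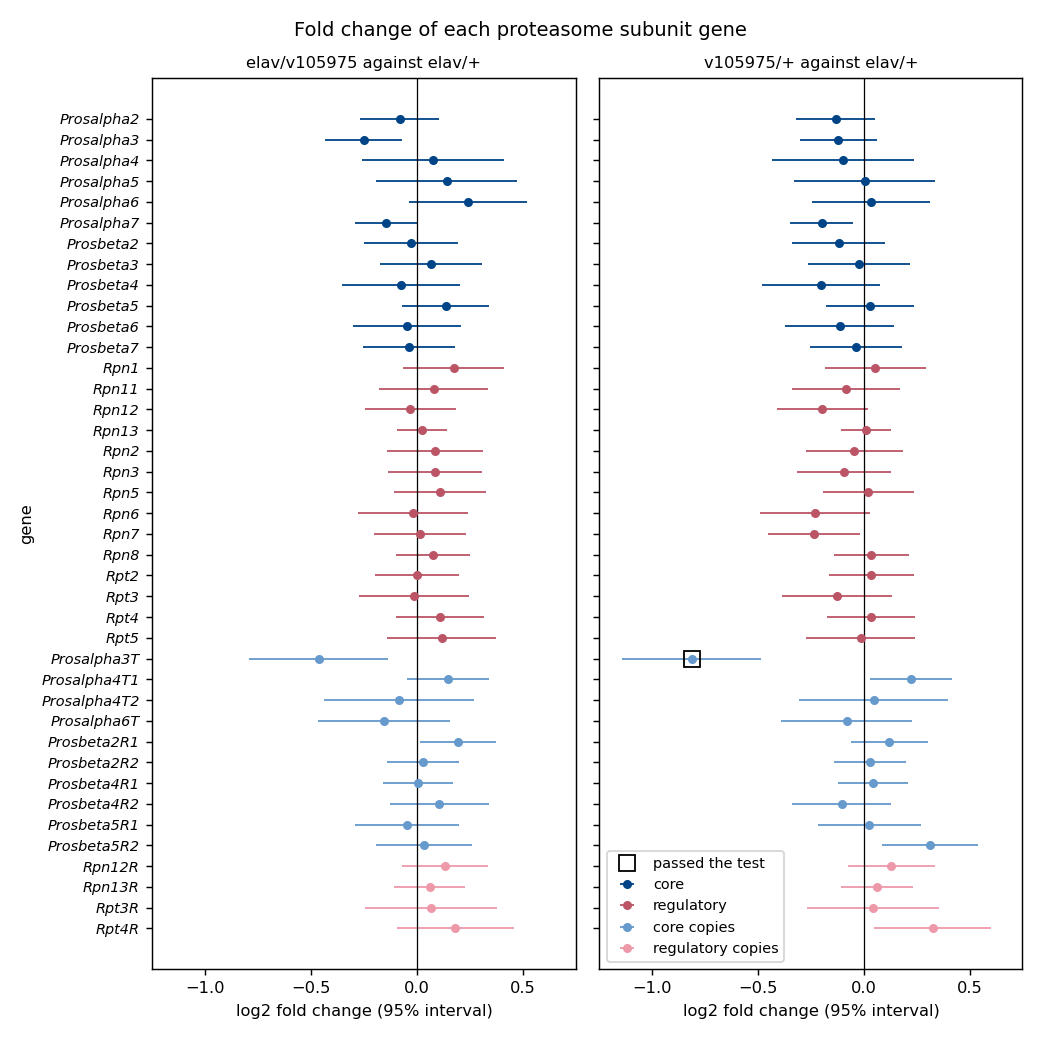
Log2 fold change of each of the 40 proteasome subunit genes (vertical axis) in elav/v105975 and in v105975/+ against elav/+ (horizontal axes, log2 units), with 95% confidence intervals from limma, 5 arrays per genotype. Colours give the particle and the copies, and the black square marks Prosalpha3T, which passed the test in v105975/+. The standard genes lie between -0.25 and 0.24 in elav/v105975 and between -0.24 and 0.05 in v105975/+.

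For the standard genes, the intervals limit how large a difference could have gone unseen. In elav/v105975 against elav/+, the log2 fold changes of the 26 standard genes ran from -0.25 for Prosalpha3 to 0.24 for Prosalpha6. The lowest bound of any interval was -0.43 and the highest 0.52, so that levels below 74.1% or above 143% of elav/+ lay outside the 95% intervals of every standard gene. In v105975/+ against elav/+ the fold changes ran from -0.24 for Rpn7 to 0.05 for Rpn1, with bounds from -0.49 to 0.34 (71.2% to 126%). For elav/v105975 against v105975/+ they ran from -0.13 for Prosalpha3 to 0.25 for Rpn7, with bounds from -0.31 to 0.51 (80.5% to 142%). These intervals reached a median of 0.22 to each side of the estimate.

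Among the alpha subunits of the core, 6 standard genes were measured, and none passed the test in any comparison. Prosalpha3 had the lowest fold change in the knockdown. Its 5 arrays read 7.36, 7.15, 7.01, 6.97 and 7.21 in elav/+, 7.03, 7.03, 7.01, 7.06 and 6.98 in v105975/+, and 7.00, 6.87, 6.60, 7.06 and 6.92 in elav/v105975. The knockdown arrays lay mostly in or under the lower part of the elav/+ range, with replicate 3 the lowest of the 15 arrays, and the genotypes overlapped. The log2 fold change was -0.25 in elav/v105975 (SE 0.0851, adjusted p = 0.0800) and -0.12 in v105975/+ (adjusted p = 0.517). Prosalpha7 read 8.51, 8.46, 8.39, 8.34 and 8.65 in elav/+, 8.11, 8.19, 8.25, 8.38 and 8.41 in v105975/+, and 8.40, 8.34, 8.20, 8.36 and 8.33 in elav/v105975. Its fold change was -0.20 in v105975/+ (adjusted p = 0.122) and -0.14 in elav/v105975 (adjusted p = 0.235). Prosalpha6 and Prosalpha5 stood at the other end, at 0.24 (adjusted p = 0.296) and 0.14 (adjusted p = 0.653) in elav/v105975, and at 0.04 and 0.00 in v105975/+. Prosalpha4, at 0.07 and -0.10, had the largest spread within genotypes of any standard gene (pooled SD 0.271). Prosalpha2 was at -0.08 and -0.13.

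The probesets shared by Prosalpha1 and Prosalpha1R, which cannot be assigned to either gene, read 0.24 and 0.21 in elav/v105975 against elav/+ (adjusted p = 0.188 and 0.244), and 0.07 each in v105975/+. Neither passed the test.

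Of the catalytic beta subunits, Prosbeta2, which carries the trypsin-like site, and Prosbeta5, which carries the chymotrypsin-like site, were measured. Prosbeta2 read 7.64, 7.45, 7.19, 7.38 and 7.55 in elav/+, 7.10, 7.32, 7.42, 7.25 and 7.53 in v105975/+, and 7.50, 7.46, 7.11, 7.58 and 7.42 in elav/v105975. The 3 genotypes covered nearly the same range. Its log2 fold change was -0.03 in elav/v105975 (SE 0.104, adjusted p = 0.915, interval -0.25 to 0.19) and -0.12 in v105975/+ (adjusted p = 0.624). Prosbeta5 read 8.81, 8.68, 8.77, 8.70 and 8.95 in elav/+, 8.49, 8.84, 8.77, 8.87 and 9.09 in v105975/+, and 8.84, 8.88, 8.76, 9.13 and 8.98 in elav/v105975. The v105975/+ arrays held both the lowest value and one of the highest. The fold change was 0.14 in elav/v105975 (SE 0.0969, adjusted p = 0.446, interval -0.07 to 0.34) and 0.03 in v105975/+ (adjusted p = 0.931). The structural subunits Prosbeta3, Prosbeta4, Prosbeta6 and Prosbeta7 lay between -0.07 and 0.07 in elav/v105975 and between -0.20 and -0.02 in v105975/+, with none past the threshold.

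In the base of the regulatory particle, 4 of the ATPase genes were measured. Rpt2, Rpt3, Rpt4 and Rpt5 had log2 fold changes of 0.00, -0.01, 0.11 and 0.12 in elav/v105975, and of 0.04, -0.13, 0.04 and -0.01 in v105975/+. Rpn1, which docks the shuttle proteins that deliver ubiquitinated substrates, was at 0.17 in elav/v105975 (SE 0.112, adjusted p = 0.387) and 0.05 in v105975/+, the highest of the 14 regulatory genes in both. Rpn2, its counterpart in the scaffold of the base, was at 0.09 and -0.04. Rpn13, a ubiquitin receptor bound to Rpn2, was at 0.02 and 0.01. Rpn13 had the narrowest interval of the standard genes, from -0.09 to 0.14 in elav/v105975, and a pooled SD within genotypes of 0.0769.

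In the lid, Rpn11, the deubiquitinase that cuts the chain from the substrate, was at 0.08 in elav/v105975 and -0.08 in v105975/+, and its partner Rpn8 was at 0.08 and 0.04. Rpn7 read 8.71, 8.27, 8.45, 8.43 and 8.74 in elav/+, 8.08, 8.21, 8.23, 8.37 and 8.53 in v105975/+, and 8.55, 8.43, 8.37, 8.67 and 8.64 in elav/v105975. The v105975/+ arrays were low and the knockdown arrays lay within the elav/+ range. The fold change of Rpn7 was -0.24 in v105975/+ against elav/+ (SE 0.103, adjusted p = 0.222), 0.01 in elav/v105975 against elav/+ (adjusted p = 0.957) and 0.25 between the 2 hairpin genotypes (adjusted p = 0.480). Rpn6, a lid subunit that holds the cap on the core, and Rpn12 were at -0.23 and -0.20 in v105975/+ (adjusted p = 0.347 and 0.325), and at -0.02 and -0.03 in elav/v105975. Rpn3 and Rpn5 were at 0.09 and 0.11 in elav/v105975, and at -0.09 and 0.02 in v105975/+.

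The core and regulatory particles were then set side by side. In elav/v105975 against elav/+, the median log2 fold change was -0.03 for the 12 standard core genes and 0.08 for the 14 regulatory genes, against -0.00 for all probesets, a difference between the particles of -0.11. Fold changes above 0 were seen for 5 of 12 core genes and 11 of 14 regulatory genes (49.5% of all probesets). Leaving out each array in turn moved the core median to between -0.08 and 0.03 and the regulatory median to between 0.03 and 0.12. The core median was above 0 without elav/+ replicate 1 (0.02), elav/+ replicate 5 (0.02) or elav/v105975 replicate 3 (0.03). In v105975/+ against elav/+ the medians were -0.11 and -0.03 (0.01 for all probesets), a difference of -0.08, with 3 of 12 and 6 of 14 above 0 (52.1% of all probesets). Without v105975/+ replicate 1 the medians were -0.01 and 0.02, and 15 of 26 standard genes were above 0 in place of 9. The regulatory median was also above 0 without elav/+ replicate 5 (0.02) or v105975/+ replicate 3 (0.01). The count fell to 4 of 26 without elav/+ replicate 4 or v105975/+ replicate 5, and to 5 without v105975/+ replicate 4. In elav/v105975 against v105975/+ they were 0.09 and 0.13 (-0.00 for all probesets), a difference of -0.04, with 10 of 12 and 13 of 14 above 0 (48.5% of all probesets). They fell to 0.03 and 0.07 without v105975/+ replicate 1, and to 0.05 and 0.07 without elav/v105975 replicate 4. These medians are descriptions. The genes of a particle deviated together on single arrays, as shown next, so the counts do not come from independent genes.

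The largest variation of the standard subunit genes was between arrays of the same genotype. The mean over the 26 standard genes, relative to its elav/+ mean, was 0.17, -0.14, -0.12, -0.09 and 0.19 on the 5 elav/+ arrays, -0.29, -0.10, -0.15, 0.06 and 0.14 on the v105975/+ arrays, and 0.06, -0.03, -0.17, 0.22 and 0.07 on the elav/v105975 arrays. The 3 genotypes overlapped over most of their range. The group means of v105975/+ and elav/v105975 lay at -0.07 and 0.03, well within the SD between arrays of 0.166 in elav/+, 0.169 in v105975/+ and 0.140 in elav/v105975 (n = 5 each). On elav/+ replicate 5, 26 of 26 standard genes were above their genotype mean, and on elav/v105975 replicate 3, 0 of 26 were. On v105975/+ replicate 1, 25 of 26 were below, and on replicate 4 of the 2 hairpin genotypes 25 of 26 were above.

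**Figure D2:**
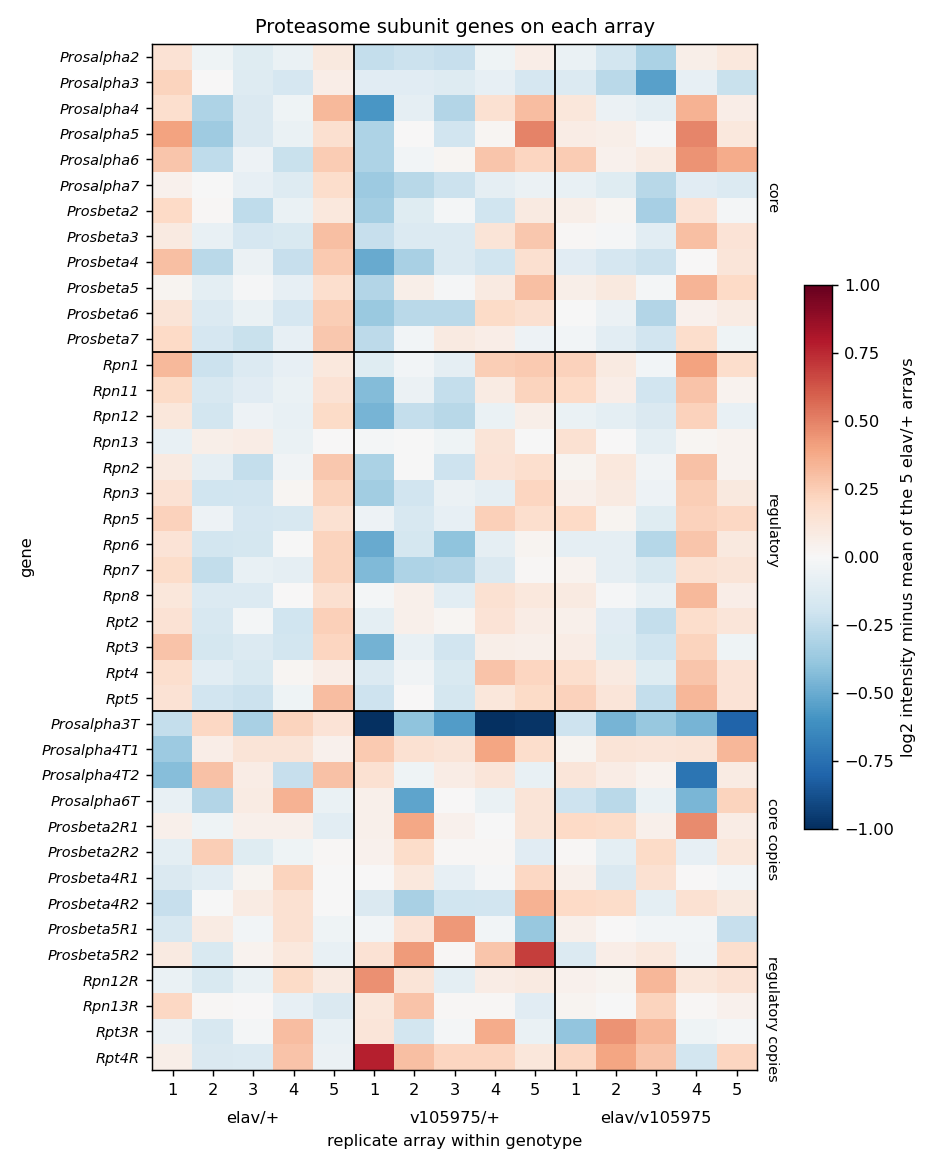
Log2 intensity of each proteasome subunit gene (rows) on each of the 15 arrays (columns, 5 replicates per genotype) minus the mean of the 5 elav/+ arrays for that gene. The standard core and regulatory genes change colour together from array to array within a genotype, as on elav/v105975 replicate 4 (25 of 26 above their genotype mean), while the copies do not follow them and Prosalpha3T is low in v105975/+.

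Both particles took part in this variation. After removal of the genotype means, the median correlation between 2 standard genes over the 15 arrays was 0.793 (325 pairs). It was 0.752 within the core, 0.825 within the regulatory particle and 0.778 between them, so the particles were tied to each other about as closely as to themselves. Pairs of all probesets with a mean of at least 6 had a median of 0.026, with quartiles of -0.216 and 0.265 (8573 probesets). These points share the RNA sample, the array and the normalization, and the correlations are given as a description. Each standard gene correlated with the mean of the other 25, from 0.757 for Prosbeta2 to 0.952 for Rpn7, apart from Prosalpha3 at 0.625 and Rpn13 at 0.180. The pooled SD within genotypes had a median of 0.174 over the standard genes, against 0.0997 for probesets with a mean of at least 6, and 25 of 26 standard genes were above that value, all but Rpn13. Spreads above that value were also seen among dimmer probesets. The median was 0.181 over the 14 copies, all 14 of them above 0.0997, and 0.140 over all probesets. The copies had mean levels of 2.15 to 5.88 and the standard genes of 6.10 to 9.52, so these spreads were not compared at the same intensity.

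The difference between the particles varied much less than their levels. The core mean minus the regulatory mean, relative to elav/+, had an SD between arrays of 0.0325 in elav/+, 0.0484 in v105975/+ and 0.0251 in elav/v105975. It was 0.03, 0.00, 0.00, -0.05 and 0.02 on the elav/+ arrays, -0.07, -0.04, 0.04, -0.06 and 0.02 on the v105975/+ arrays, and -0.08, -0.07, -0.05, -0.07 and -0.02 on the elav/v105975 arrays. All 5 knockdown arrays were below 0, and they overlapped with 1 elav/+ array, replicate 4. The mean of this difference was -0.02 in v105975/+ and -0.06 in elav/v105975. By medians over genes the particles differed more, by -0.08 and -0.11, so the size of the gap depends on the summary used.

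**Figure D3:**
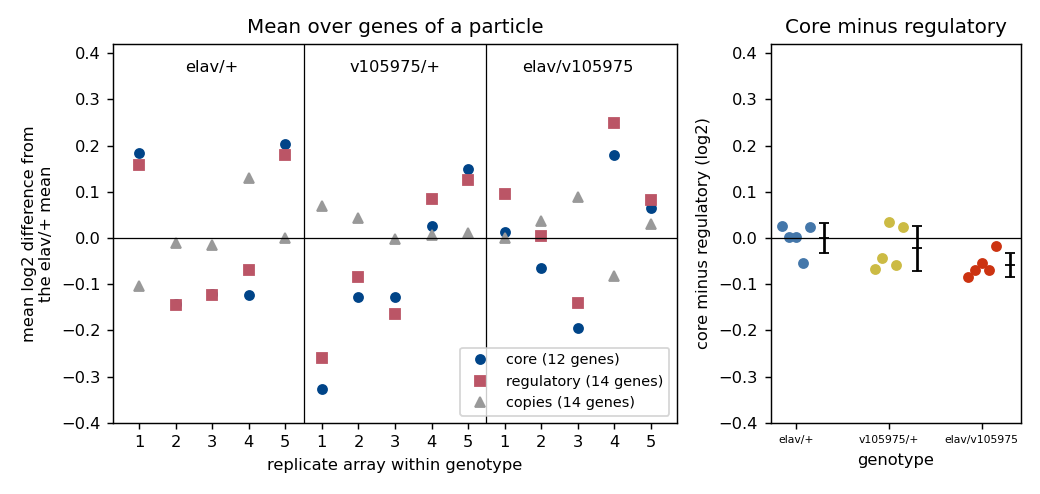
Left, mean log2 difference from the elav/+ mean (vertical axis) over the 12 standard core genes, the 14 standard regulatory genes and the 14 copies on each of the 15 arrays. Right, core minus regulatory mean on each array, with the mean and SD of the 5 arrays in black. Within a genotype the core mean ranges over up to 0.477 and the regulatory mean over up to 0.389, while their difference stays between -0.08 and 0.04.

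Markers of other cell types were read beside this variation. The correlation with the mean of the standard genes, after removal of genotype means, had a median of 0.546 over 5 fat body markers, 0.546 over 4 muscle markers, 0.345 over 4 glial markers, -0.305 over 4 neuronal markers, -0.047 over 3 photoreceptor markers and -0.013 over 4 haemocyte markers. Measured were 4 of 6 listed neuronal, 3 of 6 photoreceptor, 4 of 5 glial and 4 of 5 muscle markers. These marker correlations were not set against those of all probesets. Neuronal and photoreceptor markers had mean levels of 9.04 to 10.64 and of 10.58 to 13.36. In elav/v105975 against elav/+, 1 of 4 neuronal markers (futsch at 0.22) and 1 of 3 photoreceptor markers (trp at 0.30) were higher, 2 of 5 fat body markers were lower (apolpp at -0.34 and Yp1 at -0.28), and no glial, muscle or haemocyte marker passed the test (4.26% of all probesets were higher and 5.17% lower). In v105975/+ against elav/+, trp was higher at 0.28 and no other marker passed (6.10% of all probesets passed in either direction). The list means per array ran from 9.37 to 10.21 in elav/+, 8.96 to 9.78 in v105975/+ and 9.02 to 10.01 in elav/v105975 for fat body, and from 7.17 to 7.47, 7.16 to 7.73 and 7.25 to 7.45 for muscle. The part of tissue makeup in the shared variation was not tested.

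The copies were mostly dim, and their correlations with the standard genes within genotypes were mostly below 0. Of the 14 copies, 8 were among the dimmest 25% of probesets, below 4.29, and none of the 26 standard genes was. Pairs of copies had a median correlation of 0.042 within genotypes (91 pairs) and copies with standard genes of -0.211 (364 pairs). Of the pairs of a copy with a standard gene, 25% were above 0, against 52.9% for pairs of probesets with a mean of at least 6. Fold changes of the copies other than Prosalpha3T ran from -0.16 for Prosalpha6T to 0.19 for Prosbeta2R1 in elav/v105975, and from -0.10 for Prosbeta4R2 to 0.32 for Rpt4R in v105975/+. The median over all 14 was 0.05 in both. The copies resemble the standard genes in sequence, and how far a probeset for a copy also reads the standard transcript was not tested.

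In v105975/+ against elav/+, 1 of 40 members passed the test, where 6.10% of all probesets passed. That member was Prosalpha3T, the copy of the alpha3 subunit. Its arrays read 5.22, 5.66, 5.12, 5.68 and 5.59 in elav/+, with a mean of 5.45 ± 0.261 (SD, n = 5). They read 4.41, 5.05, 4.89, 4.37 and 4.47 in v105975/+, with a mean of 4.64 ± 0.311. They read 5.24, 4.98, 5.08, 4.99 and 4.65 in elav/v105975, with a mean of 4.99 ± 0.216. Every v105975/+ array was below every elav/+ array, and the knockdown arrays lay between these groups and overlapped with both. The log2 fold change of Prosalpha3T in v105975/+ was -0.81 (SE 0.154, adjusted p = 0.00522), or 56.9% of the elav/+ level with an interval of 45.3% to 71.5%. The exact two-sided permutation test gave p = 0.00794, the smallest that 5 against 5 arrays allow. In elav/v105975 it was -0.46 (adjusted p = 0.0750, exact permutation p = 0.0238), and between the 2 hairpin genotypes it was 0.35 (adjusted p = 0.518, exact permutation p = 0.0714). In RNA of whole heads, fewer cells of a type and less RNA per cell cannot be told apart.

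The standard counterpart of Prosalpha3T and a list of germ line genes were read beside it. Prosalpha3 was at -0.12 in v105975/+, as given above. Of 14 testis and sperm markers, 14 were measured and 0 passed the test in any comparison, where 9.43%, 6.10% and 0.417% of all probesets passed in the 3 comparisons. Of these, 11 were among the dimmest 25% of probesets, while bol, which encodes a germ line RNA-binding protein, had a mean of 10.28. The mean of the list per array ran from 3.49 to 3.51 in elav/+, from 3.47 to 3.62 in v105975/+ and from 3.49 to 3.65 in elav/v105975.

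The genes next to Prosalpha3T on chromosome arm 3R were read as well, a step chosen after its values were seen. Of the 8 genes on either side in the RefSeq order, 13 of 16 were measured. In v105975/+ against elav/+, 3 of 13 were lower and none higher, and in elav/v105975 against elav/+, 4 of 13 were lower and none higher (6.10% and 9.43% of all probesets passed in either direction). Mayo, the next gene on the near side, read 5.31, 5.73, 5.20, 5.48 and 5.50 in elav/+, 4.88, 4.81, 5.07, 4.59 and 4.78 in v105975/+, and 5.02, 4.99, 4.97, 4.53 and 5.02 in elav/v105975. Both hairpin genotypes lay below all elav/+ arrays, at -0.62 in v105975/+ (adjusted p = 0.00525) and -0.54 in elav/v105975 (adjusted p = 0.00931). CG15553, which lies beyond Mayo, was at -0.81 in v105975/+ (adjusted p = 0.00605) and -0.52 in elav/v105975 (adjusted p = 0.0517). On the far side, the adjacent gene CG15554 was at -0.03 and -0.06, and Ktch after it was at -0.45 in v105975/+ (adjusted p = 0.00180) and -0.48 in elav/v105975 (adjusted p = 7.74e-04). Farther on, lncRNA:CR43458 and bnk passed the test in elav/v105975 at -0.39 and -0.36 (adjusted p = 0.00590 and 0.0165), and were at -0.23 and -0.12 in v105975/+. The part of the chromosomal neighbourhood in the Prosalpha3T result was not tested.

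**Figure D4:**
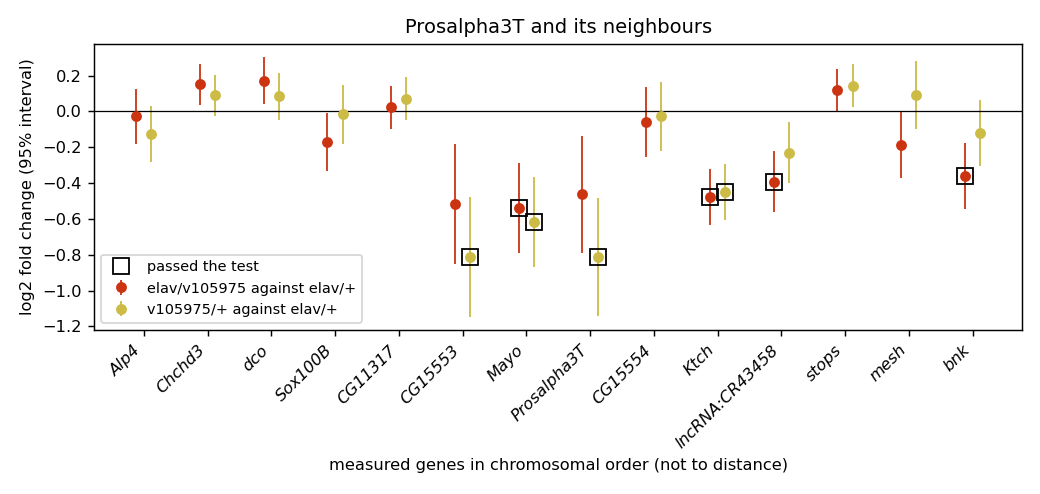
Log2 fold change (vertical axis, with 95% confidence intervals from limma) of Prosalpha3T and of the 13 measured genes among the 8 on either side, in chromosomal order and not to distance. Red is elav/v105975 and yellow is v105975/+, each against elav/+ with 5 arrays per genotype, and black squares mark genes that passed the test. Marked as lower beside Prosalpha3T are CG15553 (v105975/+), Mayo and Ktch (both genotypes), and lncRNA:CR43458 and bnk (elav/v105975), while CG15554 and CG11317 lie near 0 in both.

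The copies of the catalytic subunits were read next. Prosbeta5R2, a copy of beta5, read 3.50, 3.27, 3.46, 3.52 and 3.34 in elav/+, 3.56, 3.84, 3.43, 3.70 and 4.11 in v105975/+, and 3.28, 3.48, 3.52, 3.38 and 3.59 in elav/v105975. In v105975/+, 4 of 5 arrays were above all elav/+ arrays and replicate 3 was within their range. The fold change was 0.31 in v105975/+ (SE 0.106, adjusted p = 0.110) and 0.03 in elav/v105975 (adjusted p = 0.901). Without v105975/+ replicate 3 it was 0.39 and passed the test (adjusted p = 0.0405). Prosbeta5R1 was at -0.05 in elav/v105975 and 0.03 in v105975/+, and ranged from 3.03 to 3.84 over the 15 arrays. Prosbeta2R1 read 2.51, 2.42, 2.51, 2.51 and 2.35 in elav/+, and 2.51, 2.84, 2.50, 2.46 and 2.59 in v105975/+. It read 2.65, 2.64, 2.51, 2.93 and 2.53 in elav/v105975. The fold change of Prosbeta2R1 was 0.12 in v105975/+ (adjusted p = 0.513) and 0.19 in elav/v105975 (adjusted p = 0.179). Prosbeta2R2 was at 0.03 in both comparisons with elav/+. All 4 are dim probesets, where a log2 difference of this size is a small change in intensity.

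The genes that build, regulate and feed the proteasome were examined through 6 lists. Of 86 genes listed, 69 were measured. In elav/v105975 against elav/+, 3 of 69 were higher and 2 lower (9.43% of all probesets passed in either direction), in v105975/+ against elav/+ 2 were higher and none lower (6.10% of all probesets), and between the hairpin genotypes none passed (0.417% of all probesets). The lists were compiled with earlier results of these arrays known. Among genes for assembly, activators and regulators, 12 of 16 were measured. Pomp was higher in both hairpin genotypes and maf-S was lower in elav/v105975.

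Pomp, the chaperone that helps the core particle to mature, read 7.96, 7.63, 7.84, 7.73 and 7.83 in elav/+, 8.11, 8.25, 8.30, 8.26 and 8.50 in v105975/+, and 8.32, 8.27, 8.20, 8.49 and 8.36 in elav/v105975. Every array with the hairpin transgene was above every elav/+ array. The log2 fold change was 0.53 in elav/v105975 (SE 0.0774, adjusted p = 5.16e-04), or 144% of elav/+ with an interval of 129% to 162%. It was 0.49 in v105975/+ (adjusted p = 0.00157), or 140% with an interval of 125% to 157%. Both exact permutation tests gave p = 0.00794, the smallest possible. Of the 8 genes on either side of Pomp, 15 were measured, and 1 passed the test in elav/v105975, Amacr at -0.24 (adjusted p = 0.0402), and none in v105975/+ (9.43% and 6.10% of all probesets). Within genotypes, Pomp followed the standard subunits with a correlation of 0.832 over 15 arrays, although those subunits did not pass the test between genotypes.

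The transcription factor maf-S is the small Maf partner of cnc, the fly relative of Nrf2, and together they activate antioxidant and proteasome genes. It read 9.18, 9.38, 9.41, 9.39 and 9.25 in elav/+, 8.97, 9.19, 9.17, 8.93 and 9.28 in v105975/+, and 8.93, 8.93, 8.93, 8.85 and 8.85 in elav/v105975. All knockdown arrays were below all elav/+ arrays. The v105975/+ mean lay between, but its arrays, at 8.93 to 9.28, reached into the elav/+ range and down to the knockdown values. The fold change was -0.42 in elav/v105975 (SE 0.0751, adjusted p = 0.00133), -0.22 in v105975/+ (adjusted p = 0.0897) and -0.21 between the hairpin genotypes (adjusted p = 0.330). The gene cnc itself was at -0.09 in elav/v105975 (adjusted p = 0.351) and at -0.05 in v105975/+. Keap1, which holds cnc in check, was at 0.03 in both.

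**Figure D5:**
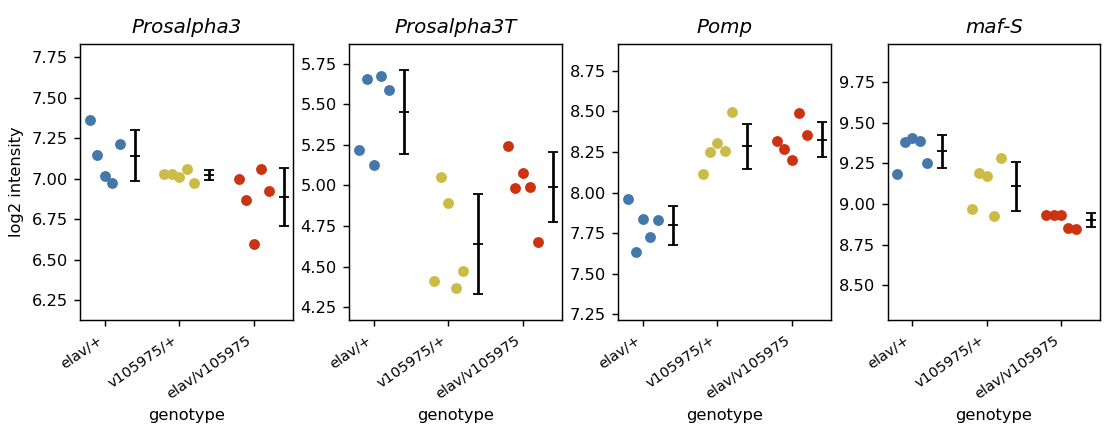
Log2 intensity (vertical axes, each spanning the same number of log2 units) of Prosalpha3, its copy Prosalpha3T, the assembly chaperone Pomp and the transcription factor maf-S on the 5 arrays of each genotype, with the mean and SD in black. Prosalpha3T is lowest in v105975/+ (mean 4.64 against 5.45 in elav/+), every hairpin array of Pomp is above the elav/+ arrays, and maf-S is lowest in elav/v105975.

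The other partners of the proteasome in this list did not pass the test. Uch-L5 and Usp14, the deubiquitinases that dock on the regulatory particle, were at 0.35 (adjusted p = 0.164) and 0.16 (adjusted p = 0.496) in elav/v105975, and at 0.16 and 0.04 in v105975/+. Both varied with the standard subunits within genotypes, at correlations of 0.917 and 0.878. The small subunit gene Sem1, which the symbol rule does not take, was at 0.16 (adjusted p = 0.528) and correlated at 0.738. REG, an activator that caps the core in place of the regulatory particle, was at -0.16 (adjusted p = 0.139), and PI31, a proteasome-binding regulator, was at -0.12 (adjusted p = 0.341).

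In the remaining lists few genes passed the test. Among deubiquitinating enzymes, 20 of 20 were measured and Usp8, which acts on endosomal cargo, was higher. It read 8.06, 7.84, 7.80, 7.63 and 8.07 in elav/+, 8.38, 8.31, 8.46, 8.24 and 8.17 in v105975/+, and 8.30, 8.35, 8.27, 8.19 and 8.07 in elav/v105975, so all hairpin arrays were at or above the highest elav/+ arrays. The fold change was 0.36 in elav/v105975 (adjusted p = 0.0179) and 0.43 in v105975/+ (adjusted p = 0.00757). Of the shuttle factors and the segregase TER94 with its cofactors, 8 of 10 were measured and Ufd4, a ubiquitin ligase and so neither shuttle nor segregase, was higher in elav/v105975 at 0.18 (adjusted p = 0.0420). TER94 was at 0.06 in elav/v105975 and correlated with the standard subunits at 0.856. Among cullin-RING ligase genes, 15 of 16 were measured and EloB, an adaptor subunit, was lower in elav/v105975 at -0.21 (adjusted p = 0.0363). The calls of Ufd4 and EloB each rested on a narrow margin and were lost in 14 and 12 of 29 alternative analyses. Of ubiquitin and activating enzyme genes 7 of 9 were measured, and of ubiquitin conjugating enzymes 7 of 15, with none past the threshold. RpS27A, which encodes a ubiquitin fused to a ribosomal protein, was at -0.17 in elav/v105975 (adjusted p = 0.0549) and passed in 6 of 29 alternative analyses.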

How the data were processed

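RNA of fly heads was hybridized to Affymetrix Drosophila Gene 1.0 ST arrays, 5 per genotype and 15 in all. The authors applied RMA (oligo 1.44.0, per the submitters' processing notes) and deposited the result as 1 log2 value per probeset and array. Its quantile step hides any shift common to most transcripts. No further normalization was applied, no value column was left out, and no 2 arrays were identical. The number of arrays limits the precision.

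All 16322 probesets were fitted over the 15 arrays with genotype as the only term (limma 3.58.1 in R 4.3.3, default empirical Bayes). P-values were adjusted by Benjamini-Hochberg over all probesets at 0.05. Exact two-sided permutation tests used all 252 divisions of 5 against 5 arrays. Fold changes were also converted to percent, with 95% confidence intervals. The fit was tested on simulated arrays with known changes and independent noise for each probeset. That setting lacks the shared variation of the standard subunits, so the simulation does not cover it.

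Of the probesets, 13441 carried 1 symbol, 555 several and 2326 none, and 13064 matched a RefSeq gene (Release 6 plus ISO1 MT) by Entrez identifier. RefSeq served for names, chromosome arms and neighbours, and the sources used here do not give the build of the files. No sequence was analysed here.

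Members could all be named by the rule. Values of each array were to be given for members that passed the test, for catalytic subunits and for their copies. For Prosbeta5R1 and Prosbeta2R2 only summaries are given. The array values of Prosalpha3, Prosalpha7 and Rpn7, and the neighbour genes, were chosen with their values in view. The members and the lists were chosen with earlier results of these data known. The alternatives were another model (2 genotypes only, replicate block, intensity trend, robust variance, array weights), scaling, filter, threshold, symbol rules and leaving out each array.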

Additional observations from a re-analysis of the deposited data

Results flagged for a closer look

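Each gene, and also array means such as core minus regulatory, was read for an array far from the other 4 of its genotype (a gap to the nearest array of over 0.71 of the range). Of 132 groups of 5 arrays, 10 had such an array (7.58%), where chance gives about 1 in 20 for normal values. The standard genes varied together, so the groups are not independent and this level is only a rough guide. Among standard subunits, Prosalpha5 stood at 7.34 on elav/v105975 replicate 4 (others 6.84 to 6.96), Rpn12 at 8.87 on the same array (others 8.50 to 8.58), and Rpn13 at 6.22 on v105975/+ replicate 4 (others 6.04 to 6.08). That elav/v105975 array also had the highest mean of the standard subunits in its genotype.

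Among the copies, Prosalpha4T2 stood at 3.63 on elav/v105975 replicate 4 (others 4.40 to 4.48), Prosalpha4T1 at 3.96 on elav/+ replicate 1 (others 4.37 to 4.46) and Prosbeta5R1 at 3.18 on elav/v105975 replicate 5 (others 3.38 to 3.46). Higher than the rest were Prosbeta4R2 at 4.31 on v105975/+ replicate 5 (others 3.65 to 3.82), Rpn13R at 6.06 on elav/v105975 replicate 3 (others 5.84 to 5.89) and Rpt4R at 5.04 on v105975/+ replicate 1 (others 4.37 to 4.56). The core minus regulatory mean was -0.0549 on elav/+ replicate 4, while the other elav/+ arrays lay between 0.00276 and 0.0259.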

How the results depend on the processing

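The counts of subunit genes past the threshold (0, 1 and 0 of 40) were the same under the 29 alternatives except 1: without v105975/+ replicate 3, 2 genes passed in v105975/+ against elav/+, Prosbeta5R2 being gained. Of the 29, 3 symbol and probeset rules left every subunit gene as it was and could not change a count, and the filter on dim probesets left 32 of 40 genes. Leaving out each array in turn gave counts of 0 to 0, 1 to 2 and 0 to 0. It moved the difference between the core and regulatory medians to between -0.12 and -0.08 in elav/v105975 and between -0.08 and -0.04 in v105975/+ (each against elav/+), and to between -0.06 and -0.02 between the hairpin genotypes. Prosalpha3T passed the test in v105975/+ in all 29 alternatives, at adjusted p of 0.00269 to 0.0183. Pomp lost its calls, and maf-S its call in elav/v105975, only where a 1.5-fold change was required. Calls absent above were gained by RpS27A in 6 alternatives and by Faf2 in 2 (both lower in elav/v105975 against elav/+), and by maf-S in 2 (lower in v105975/+ against elav/+). Of 15 same-numbered pairs of arrays, 2 deviated together with a correlation over 0.1 over all probesets (-0.08 to 0.18). Over the standard subunits, 7 of 15 did (-0.28 to 0.56). The mean of the standard subunits was below its genotype mean on replicates 2 and 3 and above it on replicate 5 in all 3 genotypes. On replicates 1 and 4 the direction differed between genotypes. The cut of 0.1 was not set against a chance level, and whether same-numbered arrays were handled together was not tested. With the replicate number as a block, the counts stayed at 0, 1 and 0, Prosalpha3T had an adjusted p of 0.0153, and Ufd4 and EloB no longer passed (0.0507 and 0.0574). Signal also limits these values, as 8 of 14 copies were among the dimmest 25% of probesets.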

Other observations

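The genes outside the proteasome whose deviations within genotypes most resembled the mean of the 26 standard subunits were ranked among 13401 probesets, after the values had been seen and as a description over 15 arrays. CG12643 came first at a correlation of 0.956, followed by Sclp at 0.955 and miple2 at 0.952. Further down were Cpr97Ea, a cuticle protein gene, at 0.928, Sox14, a transcription factor of the ecdysone response, at 0.923, Duox, an enzyme that makes hydrogen peroxide, at 0.918, Cht5, a chitinase of cuticle turnover, at 0.918, and the proteasome-bound deubiquitinase Uch-L5 at 0.917. Of the closest 20, l(2)34Fc and tn, a ubiquitin ligase of muscle, passed the test in elav/v105975 against elav/+, where 9.43% of all probesets passed. Their log2 fold changes were 0.68 (adjusted p = 0.0188) and 0.67 (adjusted p = 0.0384). The other 18 did not pass, among them Cht5 at 0.83 (adjusted p = 0.264) and miple2 at 0.43 (adjusted p = 0.0582).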
